A study of Homo sapiens with 8 samples.

Results

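The 10 genes described here encode the apolipoproteins APOA1, APOA2, APOA4, APOB, APOC1, APOC3, APOE, APOH and APOM, and the microsomal triglyceride transfer protein MTTP. They were taken by symbol from a table of raw read counts that holds 15745 named genes, and all 10 were counted in every library. The cells were HuH7, an established human hepatoma line, labelled wildtype. All 8 libraries came from cells held for 6 h without glucose in 1% oxygen and then reoxygenated for 6 h, a treatment called OGD/R that models hepatic ischemia and reperfusion in culture. During reoxygenation the cells received either the solvent DMSO (OGD/R+DMSO, n = 4) or 20 µM of the ginsenoside Rk2 in DMSO (OGD/R+Rk2, n = 4). No cells kept in normal culture were among the libraries, so each difference below is between cells that had all been through OGD/R, in 1 hepatoma line at 1 dose and 1 time.

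Apolipoproteins are the protein coat of plasma lipoproteins, and the liver is the main source of most of them. APOB is the very long structural protein of VLDL, and each VLDL particle is built around a single APOB chain. MTTP, in a complex with the protein disulfide isomerase P4HB, loads lipid onto APOB in the endoplasmic reticulum, and without that lipid the chain is degraded. APOA1 and APOA2 are the main proteins of HDL. The small apolipoproteins APOC1, APOC3 and APOE move between particles and control their lipolysis and uptake by receptors.

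The libraries held between 16374082 and 30310479 counts. The cells carried hepatocyte transcripts in both groups, with ALB at a mean CPM (read counts scaled to a common library size) of 2288 in OGD/R+DMSO and 2306 in OGD/R+Rk2, and AFP, the fetal serum protein of hepatoma cells, at 5937 and 5940. Of 8 hepatocyte markers 3 fell with Rk2 (FGB, KRT8 and KRT18) and 5 did not pass the test. By the same test 7.24% of all genes fell. FGB was close to the threshold (edgeR adjusted p = 0.0462). With the gene length correction described below it was not called (edgeR adjusted p = 0.0708), which left 2 markers lower. Of 20 markers of macrophages, endothelium, stellate cells and lymphocytes, 9 were not listed in the count table, the leukocyte marker PTPRC and the endothelial markers CDH5 and VWF among them. The summed level of the macrophage markers was 45.6 to 57.4 CPM in OGD/R+DMSO and 41.1 to 56.2 in OGD/R+Rk2, nearly all of it CD68 (means of 52.4 and 49.5 CPM), while CD14 fell from 0.803 to 0.341 CPM. The endothelial markers summed to 8.34 to 10.0 and 9.02 to 10.8 CPM, those of stellate cells and fibroblasts to 19.2 to 22.4 and 18.5 to 21.6, and those of lymphocytes to 2.40 to 3.14 and 1.75 to 3.13. OGD/R+DMSO replicate 1 stood apart from the other libraries, at 78.7 on the second principal component where the other 7 lay between -48.6 and 32.0. On the first component, which separated the groups, it lay farthest from the Rk2 libraries. It was at -114 there, the other DMSO libraries at -54.8 to -30.0 and the Rk2 libraries at 47.1 to 85.7. Values without this library are given where it matters. Nothing in the sources used here says that the 4 libraries of a group came from separate cultures, so p-values measure the spread between these libraries, which may be technical.

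For 7 of the 10 genes RefSeq (GRCh38.p14) gives sequence just upstream of a transcription start, in 10 entries. APOB, APOA1 and APOC3 have none in the table used. The 250 bases before the start are shown for the genes that rose with Rk2 and have an entry, APOA4 and MTTP, and for APOA2, a short gene that was not called on the uncorrected counts. They were searched on both strands for AAAGTCCA (an HNF4 half-site form) and TGTTTA (forkhead), the letters of factors that keep apolipoprotein genes active in liver. Capitals mark the matches.

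APOA4, chr11:116823305-116823554, minus strand: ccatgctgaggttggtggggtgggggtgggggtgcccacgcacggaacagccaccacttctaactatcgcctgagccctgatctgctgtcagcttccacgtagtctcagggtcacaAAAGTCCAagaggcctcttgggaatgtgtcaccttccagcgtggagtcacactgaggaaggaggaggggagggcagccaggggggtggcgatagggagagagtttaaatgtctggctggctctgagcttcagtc

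MTTP, chr4:99574574-99574823, plus strand: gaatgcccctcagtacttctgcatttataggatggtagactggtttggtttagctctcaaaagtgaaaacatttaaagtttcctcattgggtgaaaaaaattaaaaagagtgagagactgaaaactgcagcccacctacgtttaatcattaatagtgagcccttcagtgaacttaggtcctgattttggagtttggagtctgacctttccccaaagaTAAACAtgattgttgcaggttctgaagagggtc

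APOA2, chr1:161223629-161223878, minus strand: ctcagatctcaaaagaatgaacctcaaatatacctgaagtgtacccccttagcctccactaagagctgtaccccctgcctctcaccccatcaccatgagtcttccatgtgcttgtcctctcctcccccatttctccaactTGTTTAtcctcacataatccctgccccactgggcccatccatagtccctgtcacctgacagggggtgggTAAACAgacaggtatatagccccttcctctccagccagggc

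The HNF4 letters began 134 bases before the start of APOA4, and 0.98% of the 35116 upstream windows in the table held them. In MTTP the forkhead letters matched at 33 bases before the start, and 11.0% of all windows held them. A second MTTP entry, for a start farther upstream, held neither. APOA2 held the forkhead letters at 110 and 41 bases before the start. The same search found forkhead letters upstream of APOH and no match upstream of APOM, APOE and APOC1. These matches describe the letters only.

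With Rk2 3 of the 10 genes rose, and those were the genes of VLDL assembly, APOB and MTTP, and APOA4, a lipid-binding apolipoprotein of triglyceride-rich particles and HDL. The APOB transcript rose 1.53-fold, APOA4 rose 1.69-fold from a very low level, and MTTP rose 1.15-fold. APOB and MTTP are also the long genes among the 10, and the fold change of all genes rose with length. The call of MTTP was lost in several of the alternative fits given below. The 7 other genes all had lower fitted levels with Rk2, by at most 0.22 on the log2 scale, and none of them passed the test. A gene was called where edgeR's quasi-likelihood test, adjusted over the 12910 genes tested, gave p below 0.05. By that rule 30% of the 10 genes were called, against 18.2% of all genes tested. All 3 calls were higher in OGD/R+Rk2, as were 11.0% of all genes. None was lower, against 7.24% of all genes. At an unadjusted p below 0.05, 2 genes were lower (APOA1 and APOC1), and DESeq2 called APOA1 lower, with an adjusted p of 0.0329, while limma called none lower. APOB and APOA4 also exceeded 1.5-fold, which 3.04% of all genes tested did while passing the test. APOB was just past that fold, and fell below it without DMSO replicate 1 (log2 0.53) or Rk2 replicate 4 (log2 0.56), with the GC correction (log2 0.54) and with each correction that included length (log2 0.28 to 0.34). The groups did not overlap in 5 of the 10 genes (APOB, MTTP and APOA4 higher, APOA1 and APOC1 lower), against 28.3% of all genes tested. The median log2 fold change was -0.13 over the 10 genes and -0.002 over all genes. In RNA from a whole culture, fewer cells that carry a transcript and less of it per cell cannot be told apart.

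**Figure D1:**
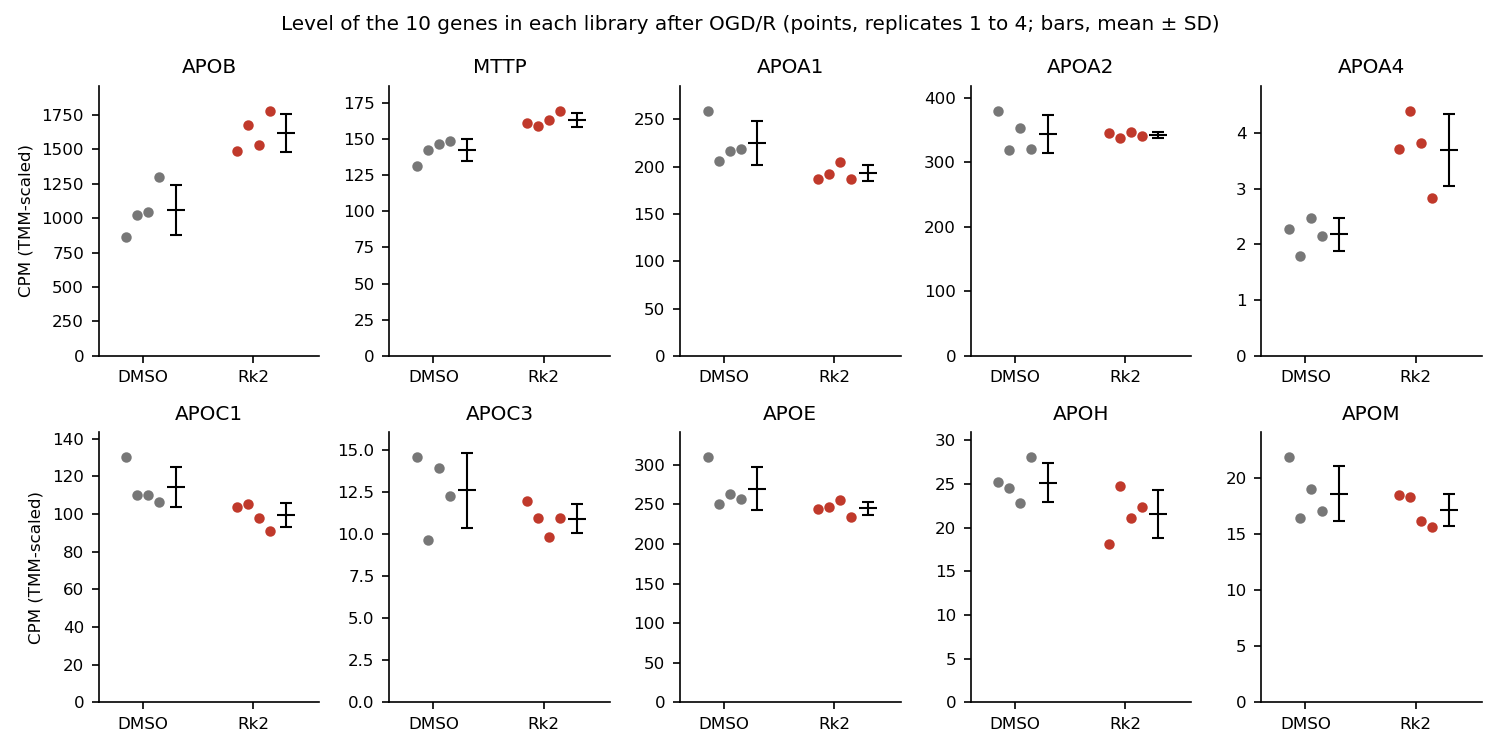
TMM-scaled CPM of each of the 10 genes (vertical axes, each starting at 0) in the 4 OGD/R+DMSO libraries (grey) and the 4 OGD/R+Rk2 libraries (red), with the mean ± SD in black. The Rk2 points lie above all DMSO points for APOB, MTTP and APOA4, below all of them for APOA1 and APOC1, and among or around them for the other 5 genes.

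APOB lies on chromosome 2 (GRCh38, chr2:21001429-21044073, minus strand). In the OGD/R+DMSO libraries 1 to 4 it stood at 864, 1024, 1041 and 1300 CPM, and in the OGD/R+Rk2 libraries at 1487, 1673, 1528 and 1780. Every Rk2 library was above every DMSO library, and DMSO replicate 1 was the lowest of all. The means were 1057 ± 180.3 (SD, n = 4) and 1617 ± 135 (SD, n = 4), and the log2 fold change was 0.61 ± 0.12 (SE, edgeR adjusted p = 0.0124). Without DMSO replicate 1 the log2 fold change was 0.53 (edgeR adjusted p = 0.0184). APOB alone took 0.0845% to 0.129% of the counts of a DMSO library and 0.150% to 0.181% of those of an Rk2 library. The 9 other genes together took 0.107% to 0.125% and 0.109% to 0.113%, so the larger sum of the 10 genes with Rk2 came from APOB. Its exons share 169 bases with AC010872.1 on the opposite strand, and the sources used here do not say whether strand was used in counting.

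MTTP (GRCh38, chr4:99563761-99623999, plus strand) had 131, 142.5, 147 and 148 CPM in the DMSO libraries and 161, 159, 163 and 169 in the Rk2 libraries. The groups were narrow and did not overlap. The mean went from 142 ± 7.65 to 163 ± 4.59 (SD, n = 4 each), which is 0.20 ± 0.05 on the log2 scale (SE, edgeR adjusted p = 0.0255). This small rise did not hold everywhere. MTTP lost its call without DMSO replicate 2 (edgeR adjusted p = 0.0587) and without any single Rk2 library (edgeR adjusted p from 0.0526 to 0.0760). With a correction for GC content it was 0.098 (edgeR adjusted p = 0.153), and with length and GC together 0.050 (edgeR adjusted p = 0.355). Exons of TRMT10A and AC083902.1 on the opposite strand overlap its exons by 102 bases.

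APOA4 lies in the APOA1/C3/A4 cluster (GRCh38, chr11:116820700-116823306, minus strand). Its libraries held only 43, 38, 45 and 46 reads in OGD/R+DMSO and 113, 83, 63 and 56 in OGD/R+Rk2. On the CPM scale these were 2.28, 1.79, 2.48 and 2.16 against 3.70, 4.40, 3.81 and 2.83. The lowest Rk2 library, replicate 4, was close to the highest DMSO library, and the others were well above it. The log2 fold change was 0.76 ± 0.17 (SE, edgeR adjusted p = 0.0186), with a 95% interval of 0.37 to 1.14. Its exons share 635 bases with AP006216.3 on the opposite strand, so without known strand some of these few reads may belong to that gene.

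APOA1, the structural protein of HDL and the activator of cholesterol esterification in plasma, lies in the same cluster (GRCh38, chr11:116835751-116837950, minus strand). It had 259, 206, 216 and 219 CPM in the DMSO libraries and 187, 193, 205 and 187 in the Rk2 libraries. All Rk2 libraries were below all DMSO libraries, the closest by less than 1 CPM. The log2 fold change was -0.22 ± 0.07 (SE, edgeR adjusted p = 0.0725), and without DMSO replicate 1, the highest, it was -0.15. Its exons share 123 bases with the antisense gene APOA1-AS.

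APOA2, the second HDL protein (GRCh38, chr1:161222292-161223631, minus strand), had 380, 319, 353 and 321 CPM with DMSO and 346, 337, 346 and 341 with Rk2. The Rk2 libraries sat inside the DMSO range and were much closer together. The log2 fold change was 0.00 in size (edgeR adjusted p = 0.975), with a 95% interval of -0.14 to 0.13, so a change of 1.5-fold in either direction lay outside it. APOM, a lipocalin of HDL that carries sphingosine-1-phosphate (GRCh38, chr6:31652416-31658210, plus strand), ranged from 16.4 to 21.9 CPM with DMSO and from 15.7 to 18.5 with Rk2. Its log2 fold change was -0.11 ± 0.11 (SE, edgeR adjusted p = 0.488), and its exons share 136 bases with BAG6 on the opposite strand.

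The exchangeable apolipoproteins gave small differences that did not pass the test. APOC1, an inhibitor of lipoprotein uptake and of lipid transfer (GRCh38, chr19:44914247-44919349, plus strand), had 130, 110, 110 and 106 CPM with DMSO and 104, 105, 97.6 and 91.0 with Rk2. The groups did not overlap, and DMSO replicate 1 was far above its group. The log2 fold change was -0.20 ± 0.08 (SE, edgeR adjusted p = 0.0991). APOE, the ligand of remnant receptors, lies beside it (GRCh38, chr19:44905754-44909393, plus strand). It had 310, 251, 263 and 256 CPM with DMSO and 245, 246, 255 and 234 with Rk2, with 1 Rk2 library inside the DMSO range (log2 fold change -0.14 ± 0.07, SE, edgeR adjusted p = 0.191). The annotated gene AC011481.3 overlaps 532 bases of APOC1 exons and 19 bases of APOE exons on the same strand, so how reads were divided between them is uncertain. APOC3, an inhibitor of lipoprotein lipase (GRCh38, chr11:116829706-116833072, plus strand), had 14.6, 9.61, 13.9 and 12.2 CPM with DMSO and 11.9, 11.0, 9.80 and 10.9 with Rk2. All Rk2 libraries lay inside the range of the DMSO libraries, and the log2 fold change of -0.20 had the wide 95% interval of -0.51 to 0.10 (edgeR adjusted p = 0.323). APOH, a phospholipid-binding plasma protein (GRCh38, chr17:66212033-66256525, minus strand), ranged from 22.8 to 28.1 CPM with DMSO and from 18.1 to 24.7 with Rk2 (log2 fold change -0.22 ± 0.10, SE, edgeR adjusted p = 0.174).

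Per transcript length, on the authors' FPKM scale, the order of the 10 levels was the same in both groups. APOA2 was highest at 636 ± 50.4 FPKM in OGD/R+DMSO (SD, n = 4) and 648 ± 8.72 in OGD/R+Rk2. APOE (186 ± 16.2 with DMSO), APOC1 (184 ± 17.9) and APOA1 (163 ± 14.1) followed, and the ranges of APOE and APOC1, and of APOC1 and APOA1, overlapped. APOB came after them at 62.3 ± 11.0 with DMSO and 97.4 ± 8.77 with Rk2, although it gave the most reads of the 10. MTTP came next at 31.9 ± 1.32, then APOC3 at 20.4 ± 3.41 and APOH at 18.1 ± 1.36, whose ranges overlapped, then APOM at 13.2 ± 1.44. APOA4 was at the bottom of the order with 1.21 ± 0.16 with DMSO and 2.10 ± 0.37 with Rk2. APOB made up 40.4% to 53.9% of the reads of the 10 genes in the DMSO libraries and 57.6% to 62.4% in the Rk2 libraries. As a share of their summed FPKM it made up 3.48% to 6.06% and 6.84% to 8.36%.

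Gene length matters for these comparisons, because between these groups the fold change of all genes moved with it. Gene lengths were derived from each gene's counts and FPKM. The count and FPKM tables did not scale alike in every library for some genes, and a derived length can differ from an annotated one, as for APOA2 with 536 bases against 927 in its longest GENCODE transcript. Among the 1290 shortest genes, up to 1278 bases, the median log2 fold change was -0.17, 1.24% of genes were called higher and 11.6% lower. Among the 1290 longest, from 6637 bases, the median was 0.21, 25.0% were called higher and 1.63% lower. Across the 12898 tested genes with a length, Spearman's rho of fold change and length was 0.39 (over genes, which do not count as replicates). The 10 genes lie at both ends of this scale. APOB has a derived length of 16763 bases and MTTP 4349, while the other 8 are under 2000 bases, from 536 for APOA2 to 1769 for APOA4. Of those 8 short genes 7 had a log2 fold change below 0 and 1, APOA4, was called.

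**Figure D2:**
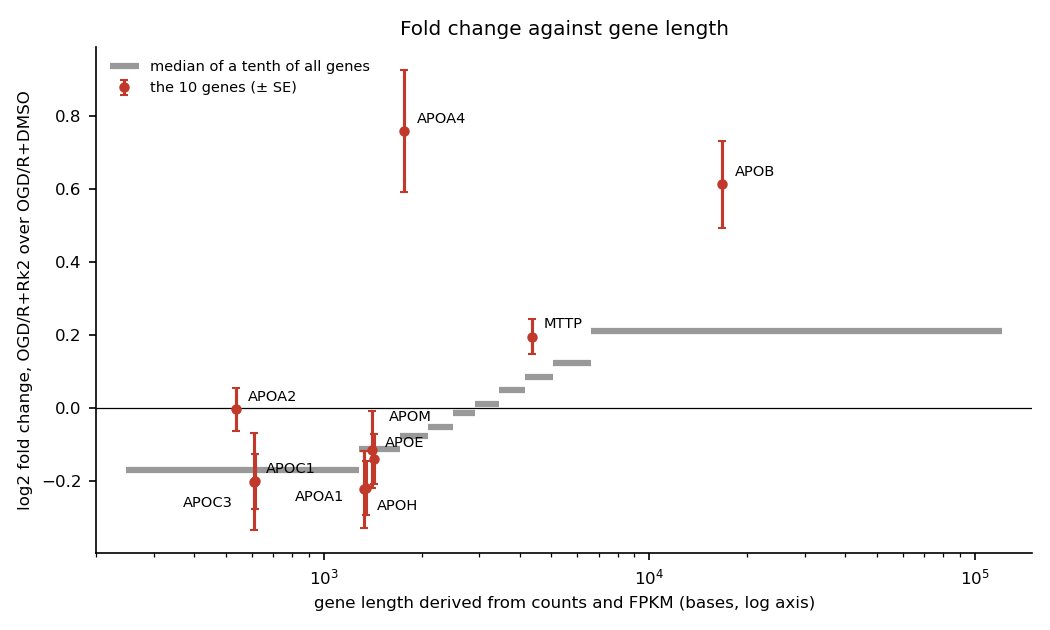
Log2 fold change of OGD/R+Rk2 over OGD/R+DMSO (vertical axis) against derived gene length (horizontal log axis, bases) for the 10 genes (red, ± SE), with the medians of all tested genes in 10 classes of length over their spans (grey bars). The grey bars climb from -0.17 to 0.21, APOC1 and APOC3 lie close to the lowest bar, and APOA4 and APOB lie well above the bars at their lengths.

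A smooth curve through all genes gave a log2 fold change of 0.32 at the length of APOB, so APOB was 0.30 above the curve. At the length of MTTP the curve stood at 0.09, and MTTP was 0.10 above it. APOA4 was 0.83 above a curve of -0.07. For APOC1 and APOC3 the curve stood at -0.20 and -0.21, and both genes lay within 0.01 of it. APOE and APOM lay 0.04 and 0.01 below the curve, and APOA1 and APOH 0.11 below it each. APOA2 differed from APOC1 and APOC3, its neighbours in length, since it was 0.22 above a curve of -0.22. The cause of the dependence on length was not tested.

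With a correction that removes the dependence on length within each library, 3 of the 10 genes were again called and all 3 were higher in OGD/R+Rk2, against 7.98% of all genes tested, but they were not the same 3. APOB kept a log2 fold change of 0.30 ± 0.06 (SE, edgeR adjusted p = 0.0112) and APOA4 one of 0.83 ± 0.16 (edgeR adjusted p = 0.0114). MTTP fell short at 0.10 ± 0.03 (edgeR adjusted p = 0.0805), but was called with annotated GENCODE lengths in place of the derived ones (0.15, edgeR adjusted p = 0.0356). APOA2 was called higher at 0.24 ± 0.04 (edgeR adjusted p = 0.0100). APOC1 and APOC3 moved to 0.01 and 0.02, APOE to -0.04, APOM to -0.01, and APOA1 and APOH to -0.11 and -0.12. The median over the 10 genes went from -0.13 to 0.02. The share of higher genes among all calls went from 60.2% to 45.6% with the correction, and it was 48.8% with upper-quartile normalization and 70.6% with library size alone. APOB and APOA4 were therefore called higher in both fits, and the direction of the small differences in APOC1, APOC3 and APOA2 depended on the correction. With annotated lengths APOC1 and APOC3 kept their sign, at -0.030 and -0.024, and APOA2 was still called higher (0.15, edgeR adjusted p = 0.0251).

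**Figure D3:**
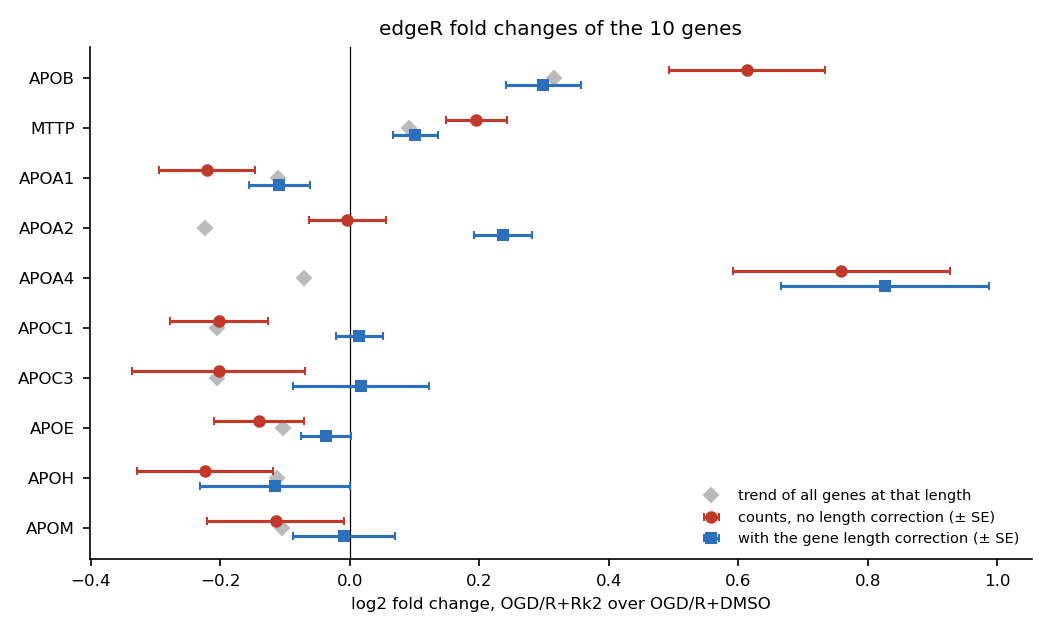
Log2 fold change of OGD/R+Rk2 over OGD/R+DMSO (horizontal axis) for each gene without (red circles) and with (blue squares) the gene length correction, ± SE, and the curve of all genes at the same length (grey diamonds). APOB goes from 0.61 to 0.30, APOA2 from 0.00 to 0.24, APOC1 and APOC3 move to near 0, and APOA4 changes little.

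DMSO replicate 1, the library that stood apart, had the lowest APOB and MTTP of the DMSO libraries and the highest APOA1, APOA2, APOC1, APOC3, APOE and APOM. The long genes were thus low and most of the short genes high in that library. Without it APOA1 was at -0.15 and APOC1 at -0.13, APOA2 turned to 0.05, and APOB, MTTP and APOA4 were still called, at 0.53, 0.16 and 0.78.

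Ratios between pairs of the genes within a library do not depend on how libraries are scaled against each other. The counts of APOB were 3.33, 4.97, 4.82 and 5.94 times those of APOA1 in the DMSO libraries and 7.93, 8.68, 7.44 and 9.51 times in the Rk2 libraries. The groups did not overlap. The mean log2 ratio went from 2.22 ± 0.35 to 3.06 ± 0.15 (SD, n = 4 each), a difference of 0.84, or 1.79-fold. The two-sided exact permutation test gave p = 0.0286, the smallest value that 4 against 4 libraries allow, and 0.0571 after Benjamini-Hochberg adjustment over the 4 ratios tested, so it missed 0.05 after adjustment. With the length correction the difference was 0.41, with groups still apart at the same exact p of 0.0286.

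MTTP loads APOB, so the ratio of their transcripts was compared next. MTTP counts were 0.152, 0.139, 0.141 and 0.114 of those of APOB in the DMSO libraries and 0.108, 0.0951, 0.106 and 0.0952 in the Rk2 libraries. Every Rk2 library was below every DMSO library, with DMSO replicate 4 the closest. The mean log2 ratio was -2.88 ± 0.18 with DMSO and -3.31 ± 0.10 with Rk2 (SD, n = 4 each), a difference of -0.43 (two-sided exact permutation p = 0.0286, adjusted 0.0571). On FPKM the difference was -0.43 with an exact permutation p of 0.0857, and with the length correction -0.20 with an exact permutation p of 0.0286.

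The ratios of neighbouring short genes gave much smaller differences. APOC3 to APOA1, from the cluster on chromosome 11, had a mean log2 ratio of -4.17 ± 0.19 with DMSO and -4.15 ± 0.17 with Rk2 (SD, n = 4 each, two-sided exact permutation p = 0.714, adjusted 0.714). APOC1 to APOE, from chromosome 19, had -1.24 ± 0.03 and -1.30 ± 0.08 (two-sided exact permutation p = 0.286, adjusted 0.381). In both pairs the groups overlapped.

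**Figure D4:**
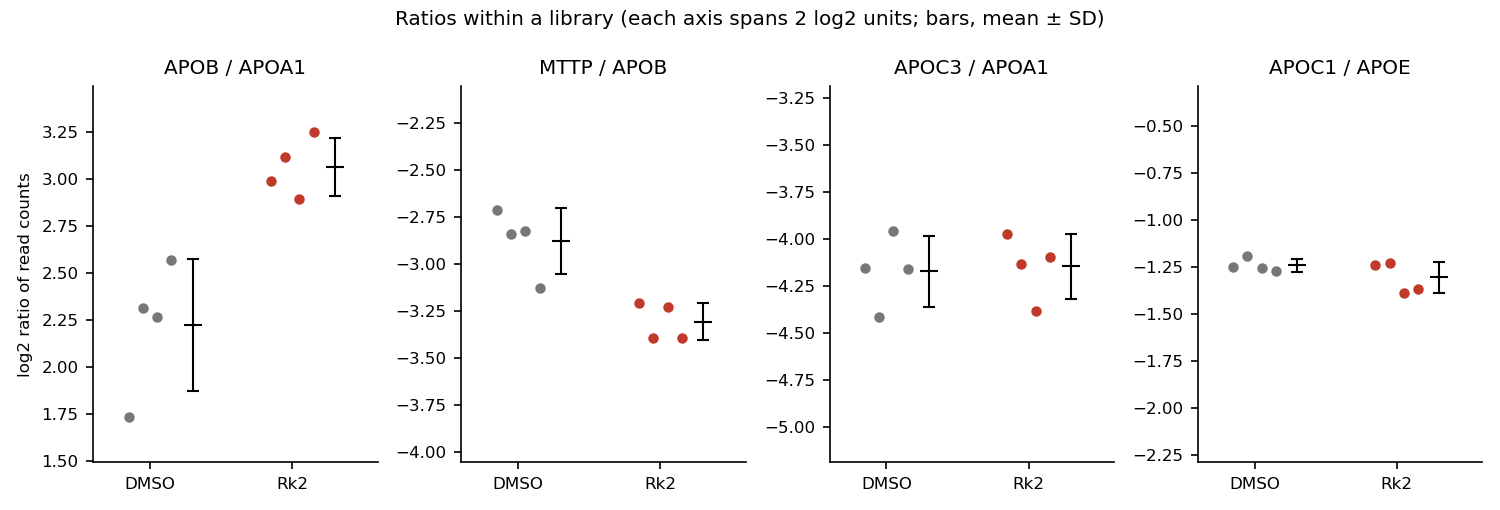
Log2 ratio of read counts within each library (vertical axes, each spanning 2 log2 units) for 4 pairs of genes in OGD/R+DMSO (grey) and OGD/R+Rk2 (red), with the mean ± SD in black. APOB over APOA1 is higher and MTTP over APOB lower in every Rk2 library, and the APOC3 and APOC1 ratios overlap between groups.

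Other genes make or store lipid, lipidate APOB, or act on the export and sorting of VLDL. The output of VLDL itself was not measured. Of 25 tested genes of VLDL lipidation and secretion, 9 rose with Rk2, 16 did not pass the edgeR test and none fell, also at an unadjusted p below 0.05 or in DESeq2 and limma. The median log2 fold change was 0.17, against -0.002 for all genes, and 11.0% of all genes were called higher. LPIN1, a phosphatidate phosphatase that makes diacylglycerol for triglyceride synthesis, rose from 9.75 ± 0.56 to 15.3 ± 1.09 CPM (SD, n = 4 each; log2 fold change 0.65, edgeR adjusted p = 0.00173). SEC23A, a subunit of the COPII coat of export vesicles, rose from 202 ± 14.3 to 269 ± 9.80 CPM (0.41, edgeR adjusted p = 0.00325). MIA3, which helps COPII carriers take up bulky cargo, rose from 51.3 ± 3.88 to 71.9 ± 7.44 CPM (0.49, edgeR adjusted p = 0.00887). PLIN2, a coat protein of lipid droplets, rose from 865 ± 24.2 to 994 ± 22.9 CPM (0.20, edgeR adjusted p = 0.00821). The 5 further calls were SEC23B (0.22), TMEM41B (0.30), SORT1 (0.28), SOAT1 (0.23) and P4HB (0.17), named here because they complete the list. P4HB is the partner of MTTP, whose own log2 fold change was 0.20. With the length correction 8 of the 25 were higher and none lower, and 7.98% of all genes tested were called higher. SOAT1 and SORT1 shrank to 0.02 and 0.10 with it and were no longer called. CIDEC, not called without the correction (edgeR adjusted p = 0.106), was called with it (0.35, edgeR adjusted p = 0.025). On FPKM limma called 4 of the 25 higher. Among the genes called on counts, the FPKM ranges of the groups overlapped for MIA3, TMEM41B and SORT1.

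Of 21 tested transcription factors and coregulators that act on apolipoprotein genes, 5 rose and 16 did not pass the edgeR test. Of all genes tested 11.0% were called higher and 7.24% lower. None of the 21 fell, with 2 lower at an unadjusted p below 0.05, 1 lower in DESeq2 and none in limma. Their median log2 fold change was 0.11, against -0.002 for all genes. With the length correction the middle of the 21 values was 0.006 (NR2F1), against a median of -0.02 for all genes. By the corrected fit 4 were called higher, against 7.98% of all genes tested. These were CEBPB, NR0B2, NR5A2 and NR1H4, and NR1H4 (0.21, edgeR adjusted p = 0.0362) was not called without the correction. CEBPA, a factor of hepatocyte differentiation, was the 1 called lower with it (-0.16, edgeR adjusted p = 0.0153). CEBPB, an acute-phase and stress-responsive factor, rose from 68.4 ± 3.47 to 107 ± 1.65 CPM (SD, n = 4 each; log2 fold change 0.65, edgeR adjusted p = 0.00017). NR0B2, the bile acid-induced repressor SHP, rose from 6.86 ± 0.35 to 10.0 ± 0.73 CPM (0.55, edgeR adjusted p = 0.00407). RORA, a nuclear receptor, rose from 2.66 ± 0.62 to 4.57 ± 0.37 CPM (0.78, edgeR adjusted p = 0.0167), but not with the length correction (0.50, edgeR adjusted p = 0.140). NR5A2, the nuclear receptor LRH-1, rose from 26.2 ± 6.49 to 44.3 ± 4.66 CPM (0.76, edgeR adjusted p = 0.0235). The remaining call was PPARGC1A, a coactivator induced by fasting, at 1.33 ± 0.53 CPM with DMSO and 3.03 ± 0.48 with Rk2 (SD, n = 4 each; 1.18, edgeR adjusted p = 0.0299). It rested on few reads, 13 to 34 in the DMSO libraries and 57 to 74 in the Rk2 libraries. PPARGC1A too was not called with the length correction (0.98, edgeR adjusted p = 0.0708). On FPKM the groups overlapped for RORA (0.195 to 0.558 with DMSO, 0.329 to 0.573 with Rk2). They also overlapped for PPARGC1A (0.080 to 0.403 with DMSO, 0.319 to 0.738 with Rk2). FOXA1, FOXA3 and HNF4A belong to the factors whose letters were searched upstream of the genes. Their log2 fold changes were -0.04, -0.08 and 0.39, the last with an SE of 0.35, and none passed the test. On FPKM the means of HNF4A were 16.05 with DMSO and 16.02 with Rk2.

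Genes that act on HDL and on lipoproteins after secretion, and the other plasma apolipoproteins, gave no calls in the edgeR test used for the calls above. Of all genes tested that test called 18.2%. Under the other settings these 2 lists gave 0 to 2 calls each. Of 10 tested genes of HDL formation and remodelling none was called, with 1 higher (LIPC) and 1 lower (PLTP) at an unadjusted p below 0.05, none in DESeq2 and 1 higher in voom (LIPC). Their median log2 fold change was -0.03. With the length correction LIPC, the hepatic lipase, was called higher (0.18, edgeR adjusted p = 0.0256) and ABCA1, the pump that lipidates APOA1, was called lower (-0.51, edgeR adjusted p = 0.00584). Without the correction ABCA1 was at -0.24 (edgeR adjusted p = 0.261) and its groups overlapped. LIPG, the endothelial lipase, depended on the table used. Its FPKM was 8.06 to 8.99 in the DMSO libraries and 15.2 to 18.0 in the Rk2 libraries (limma on log2(FPKM + 1), adjusted p = 0.000587), while its CPM was 33.5 and 35.2 in Rk2 replicates 1 and 2 and 70.02 and 77.3 in replicates 3 and 4 (edgeR adjusted p = 0.180). Of 4 tested other apolipoproteins none was called in that test. CLU, an abundant extracellular chaperone, had a log2 fold change of -0.20 close to the threshold (edgeR adjusted p = 0.0519). It was called lower in DESeq2 and in 3 edgeR fits, with upper-quartile normalization, with at least 50 counts in every library and with annotated lengths. The 5 others of that list were not tested: APOA5, APOC4, APOD and APOF had too few counts, and LPA was not listed in the count table.

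**Figure D5:**
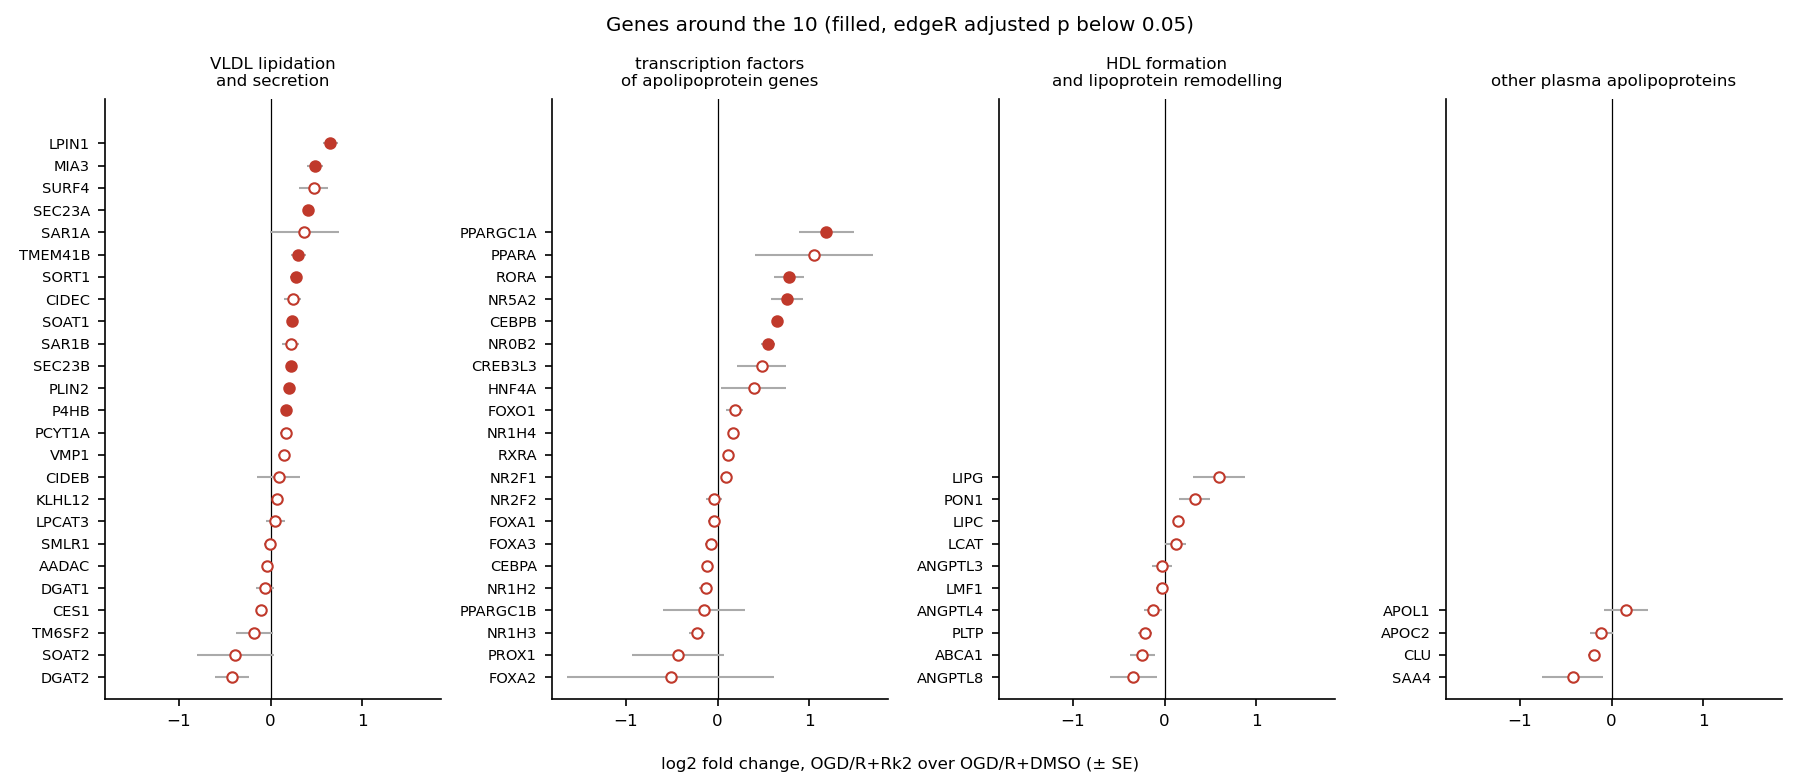
Log2 fold change of OGD/R+Rk2 over OGD/R+DMSO (horizontal axes, ± SE) for the tested genes of 4 lists, ordered by value, with filled points where the edgeR adjusted p is below 0.05. The filled points of VLDL lipidation and secretion and of the transcription factors all lie to the right of 0, and the other panels hold no filled point.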

How the data were processed

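RNA-seq libraries of HuH7 cells were prepared by the authors with the MGIEasy RNA Library Prep Kit from 250 ng of RNA and sequenced on a BGISEQ-500. The submitters' processing notes name FastQC 0.11.5, HISAT2 2.2.1, StringTie 1.3.3 and hg38. The annotation, the counting tool and the use of strand are not given in the sources used here. The authors deposited raw read counts of 15767 genes and FPKM, which they normalized for gene length and library size (19799 rows). Among the counted genes, 22 symbols had been turned into dates and were left out (0.111% of counts). Samples were grouped by their deposited labels. The 10 genes and all gene lists were chosen with earlier results of these data known, and 1 gene of the lists is not reported here.

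The 12910 genes that reached 10 counts in 4 or more libraries (99.8% of counts) were tested with edgeR 4.0.16 (robust quasi-likelihood test, TMM, condition only, Benjamini-Hochberg over all of them, R 4.3.3). CPM are TMM-scaled. The length correction was a loess curve (span 0.5) per library, on lengths derived from counts and FPKM, used as an offset. Ratios had 0.5 added to each count and were tested with exact permutations (scipy 1.17.1). Named genes were the 10 and, from each list, at most the 4 called genes of smallest p in each direction, with any other gene named after its values were seen. Alternatives were DESeq2 1.42.0, other scalings and filters, limma 3.58.1 on FPKM (0.1 or 1 added) and voom, a replicate block, and leaving out each library. Corrections for GC content and for annotated length were added after seeing the data. Coordinates and overlaps come from GENCODE 29 (GRCh38). The edgeR and length steps were tested on simulated data.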

Additional observations from a re-analysis of the deposited data

Results flagged for a closer look

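The CPM of APOC1 in OGD/R+DMSO replicate 1 was 130, while the other 3 libraries of the group lay between 106 and 110. Its gap to the next library took 0.841 of the range of the group, above Dixon's 95% critical value for 4 samples. It was the only one of 28 groups of values examined (10 genes and 4 ratios in each group) past that limit, and chance flags about 1 in 20 groups. Without that library the log2 fold change of APOC1 was -0.13 in place of -0.20, and neither passed the edgeR test.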

How the results depend on the processing

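APOB was higher and called under all 23 alternatives, with log2 fold changes from 0.28 (length and GC corrected) to 0.73. APOA4 was higher in all 22 that tested it, and was called except under the replicate block (0.75, edgeR adjusted p = 0.0569) and the block with the length correction (0.82, edgeR adjusted p = 0.0522). MTTP was higher in all 23, but was called in 14, and its log2 fold change fell to 0.098 with the GC correction (edgeR adjusted p = 0.153) and 0.050 with length and GC (edgeR adjusted p = 0.355). The number of the 10 genes called was 2 to 4 (2 or 3 with a library left out). APOA1 was called lower in DESeq2 and with upper-quartile normalization. Same-numbered libraries of the groups did not clearly deviate together (correlations -0.0095 to 0.0845), nor did each correlate best with its own number. No pairing by number was seen, but with 4 libraries a group these correlations cannot show that there is none. The replicate block called 1815 of all genes and the block with the length correction 1492.

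Over all genes, 2352 were called, but 1123, 1106 and 970 in limma on log2(FPKM + 1), on log2(FPKM + 0.1) and on log2(FPKM + 1) without a filter, and 1293 to 2287 with a library left out, the fewest without Rk2 replicate 4 (1467 without replicate 2 and 1510 without replicate 3). Calls among the transcription factors went from 5 to 3 without Rk2 replicate 3, with annotated length, with length and GC, in limma on FPKM and at 50 counts in every library, and to 2 with block and length, and those among the HDL genes from 0 to 1 without DMSO replicate 1 or Rk2 replicate 1, with library size alone, in voom and limma on FPKM, and with block and length, and to 2 with the other length corrections. Without a filter APOD, with almost no reads, was called lower. The causes were not tested. APOA2, with a log2 fold change of -0.0036, turned to 0.029 with library size alone and in all 3 limma fits on FPKM, 0.031 in voom, 0.032 with the GC correction, 3.76e-06 with the block, and 0.24, 0.24, 0.24 and 0.15 with the length correction, with block and length, with length and GC, and with annotated length. It was -0.037 to 0.049 with a library left out (0.010 without DMSO replicate 3, 0.0043 without Rk2 replicate 2). Under the length correction, block with length, and length with GC, APOC1 turned to 0.015, 0.014 and 0.020, and APOC3 to 0.017, 0.024 and 0.020. APOM turned to 0.026 with annotated length and 0.0047 with length and GC. The difference in the ratio of APOC3 to APOA1 was -0.057 to 0.10 with a library left out. That of APOC1 to APOE was -0.064, but 0.050 with the length correction. The ratio of APOB to APOA1 stayed between 0.68 and 0.96, and that of MTTP to APOB between -0.51 and -0.37, with a library left out, where no exact p can be below 0.0571. APOA4, with 38 to 113 reads a library, has few reads behind it and dropped out at 50 counts in every library.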

Other observations

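Several genes of the lists differed more between libraries of a group than any of the 10 genes did. The highest and the lowest library of a group differed by at most 1.55-fold for the 10 genes, but by more than 2-fold for 12 of the 74 list and marker genes tested. The share over all genes was not computed. Some of the 12 had few reads, with at most 24 in a library for CD14 and 27 for SOAT2. Others were PPARA (7.33-fold), PPARGC1B (5.03-fold), PROX1 (4.54-fold) and HNF4A (3.07-fold). FOXA2, a forkhead factor of liver, had 5.37, 4.85, 94.6 and 89.5 CPM in OGD/R+DMSO and 13.1, 15.4, 12.2 and 95.5 in OGD/R+Rk2, and its FPKM followed the same pattern. CREB3L3, an endoplasmic reticulum-bound factor that activates APOA4, had 149, 136, 57.3 and 137 CPM with DMSO and 159, 171, 171 and 167 with Rk2. SURF4, a cargo receptor for lipoprotein export, had 404, 390, 378 and 379 CPM with DMSO and 464, 462, 754 and 465 with Rk2. Its spread of 1.63-fold was below the 2-fold limit. The genes named in this paragraph were chosen after their values were seen, and the cause of the uneven values was not tested.

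The ratio of library-scaled counts to FPKM of a gene, which is its length, varied by more than 1.5-fold between libraries in 28.1% of the tested genes. For the 10 genes it varied by at most 1.14-fold. For LIPG it varied by 2.28-fold, and for SAR1A, the GTPase that starts COPII coats, by 2.95-fold. SAR1A had 147, 70.3, 61.6 and 57.8 CPM in the DMSO libraries, but 55.8, 46.9, 43.2 and 40.4 FPKM.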
